A study of Rattus norvegicus with 12 samples.

Results

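The genes of pyruvate entry into mitochondria and of the tricarboxylic acid (TCA) cycle were followed in the hearts of lean, obese and nicotinamide-treated obese rats. The module was a list of gene names with no threshold on a measured value, 33 genes in 6 steps: the mitochondrial pyruvate carrier, the pyruvate dehydrogenase complex, its kinases, its phosphatases, the cycle enzymes, and the cytosolic and mitochondrial enzymes of the malate-aspartate shuttle. Of these, 32 had a row in the expression table of 17602 genes, each with 1 row and a number in all samples. Ogdh, a subunit gene of the 2-oxoglutarate dehydrogenase complex, was not analysed here.

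Pyruvate made in the cytosol crosses the inner mitochondrial membrane through a carrier built of MPC1 and MPC2, and the pyruvate dehydrogenase complex turns it into acetyl-CoA. Kinases (PDK) phosphorylate the complex and switch it off, and phosphatases (PDP) switch it on again, so their balance sets how much glucose carbon, as against fatty acid carbon, feeds the cycle. The heart draws most of its fuel from fatty acids, and the cycle reduces NAD+ to NADH at several of its steps.

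The samples were 12 cardiac muscle RNA samples of ZSF1 rats, 4 from lean, 4 from obese and 4 from obese rats given NAM (nicotinamide, a precursor of NAD+) at 24 mM in drinking water between weeks 8 and 20 of age. The study used obese ZSF1 rats, which combine obesity, high blood pressure and metabolic syndrome, as a model of risk for heart failure with preserved ejection fraction, and lean ZSF1 rats as non-failing controls. The labels call the obese animals diet-induced, whereas the ZSF1 strain is known for obesity that arises from leptin receptor mutations. The labels give neither sex nor the ages of the lean and untreated obese groups, and they do not say that each sample is a separate animal, so the p-values measure the spread between these samples only.

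Values are TPM, transcript shares that are corrected for gene length and sum to a fixed total in each sample, and sequencing depth is unknown. Between 14759 and 15120 genes were above 0 per sample. Mitochondrially encoded genes held 69.1% ± 2.0 of lean TPM, 75.1% ± 0.38 of obese TPM and 71.3% ± 1.7 with NAM (SD, n = 4 each), so every other gene shared a smaller remainder in obese hearts. The median of 10526 tested genes lay at a log2 change of -0.20 in obese against lean and of 0.25 in NAM-treated against obese hearts as deposited. For this reason each result is given on the deposited scale and again after rescaling by one factor per sample, the median ratio of its genes to the mean profile (median-of-ratios), which brings the median gene to within 0.01 of no change. Markers of cardiomyocytes were abundant in all samples, with Tnnt2, cardiac troponin T, at a mean of 5080 TPM, whereas the skeletal muscle myosin gene Myh4 stayed at or below 0.314 TPM. In whole tissue, fewer cells of one type and less RNA per cell cannot be told apart.

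The promoters of the carrier pair and of Pdk4 are shown first, because Mpc1 and Mpc2 were the members called between NAM-treated and lean hearts after rescaling and Pdk4 was the member that varied most between samples of one group. The sequences are the 250 bases upstream of the annotated start in RefSeq, build GRCr8, 5′ to 3′ on the gene's strand. They cover chr1:54996959-54997208 on the minus strand for Mpc1, chr13:80261006-80261255 on the plus strand for Mpc2 and chr4:34568330-34568579 on the minus strand for Pdk4. Capitals mark CCAAT or, for the other strand, ATTGG.
Mpc1: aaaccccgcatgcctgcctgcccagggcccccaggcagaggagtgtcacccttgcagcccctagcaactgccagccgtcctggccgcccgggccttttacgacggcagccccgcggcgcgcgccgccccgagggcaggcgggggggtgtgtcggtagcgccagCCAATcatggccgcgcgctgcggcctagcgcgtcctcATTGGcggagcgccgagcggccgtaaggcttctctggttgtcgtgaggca
Mpc2: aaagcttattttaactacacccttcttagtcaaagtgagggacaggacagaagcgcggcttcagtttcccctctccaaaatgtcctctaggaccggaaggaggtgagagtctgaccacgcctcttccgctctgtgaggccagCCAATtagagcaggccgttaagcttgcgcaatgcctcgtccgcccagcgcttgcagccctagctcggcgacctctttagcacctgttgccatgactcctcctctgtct
Pdk4: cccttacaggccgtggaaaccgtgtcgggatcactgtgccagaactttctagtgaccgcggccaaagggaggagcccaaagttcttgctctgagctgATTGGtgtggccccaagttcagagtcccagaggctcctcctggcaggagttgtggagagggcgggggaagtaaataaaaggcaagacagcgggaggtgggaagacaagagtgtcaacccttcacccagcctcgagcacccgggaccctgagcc

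The Mpc1 window held the motif at 2 places, with first bases 87 and 50 bases before the start, the Mpc2 window held it once, at 108 bases, and the Pdk4 window once, at 153 bases. The Mpc1 window was 72.4% G or C, against 55.2% for Mpc2 and 59.2% for Pdk4. Upstream windows were on hand for 29 of the 32 members, all but Pdp1, Pdp2 and Idh3a. On either strand CCAAT lay in 15 of these 29 windows (51.7%), beside 34.0% of 33469 RefSeq promoter windows of the same length. The half-site of oestrogen-related receptors, AAGGTCA, lay in 0 of 29 member windows and in 3.99% of all windows. The NRF1 core, GCATGCGC, was found in Sdhb alone among the members (2.2% of all windows). A match of letters is a description and not evidence of binding.

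Most members were well expressed in these hearts. Over all 12 samples, 29 of the 32 had a mean of at least 10 TPM, as did 3013 of 10526 tested genes. The 3 below it were Pdpr at 9.72, Pdp2 at 4.94 and Pdk3 at 0.946 TPM. In lean samples mean levels ran from 690 TPM for Mdh1, the cytosolic malate dehydrogenase, and 555 TPM for Idh2, the NADP-dependent isocitrate dehydrogenase of mitochondria, to 1.02 TPM for Pdk3. The order Pdha1, Dld, Pdhb, Dlat, Pdhx from the highest to the lowest TPM held within the pyruvate dehydrogenase complex in all 12 samples. Mpc1 was above Mpc2, and Pdp1 above Pdpr above Pdp2, in all 12 samples as well. By contrast, the kinases took 4 different orders, with Pdk1 the highest in 7 samples and Pdk4 in 5.

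**Figure D1:**
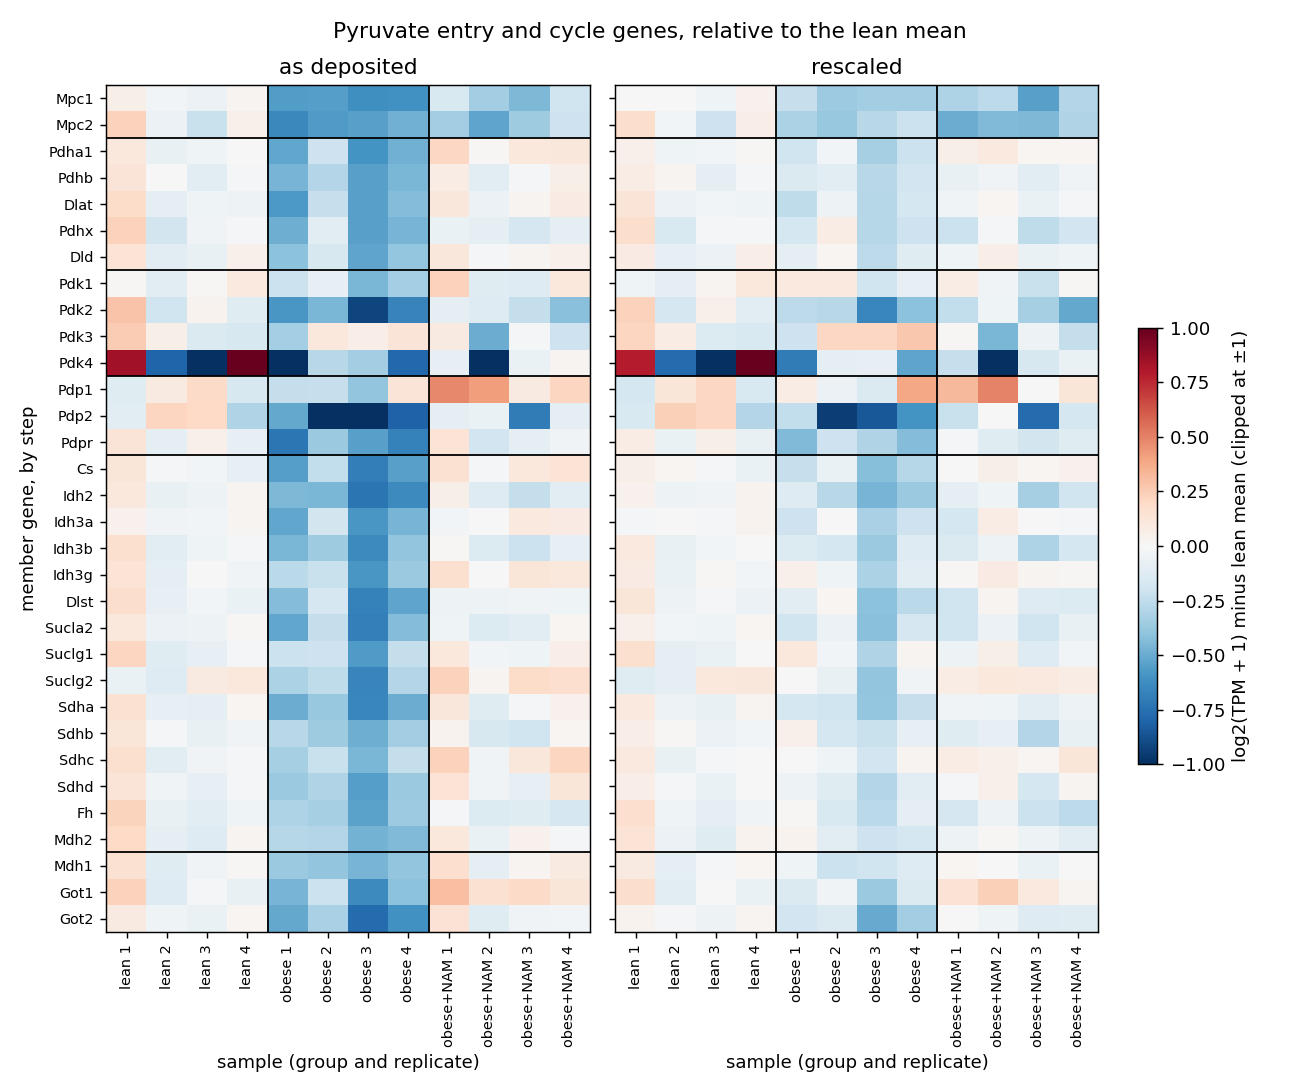
Level of each of the 32 members in each of the 12 samples as log2(TPM + 1) minus the mean of the 4 lean samples, as deposited (left) and rescaled (right), with members ordered by step and colours clipped at 1 either way. The obese columns are lower across nearly all genes as deposited, this is weaker after rescaling, and the rows of Mpc1 and Mpc2 remain below lean in the obese+NAM columns.

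The first comparison asked how the module differs between obese and lean hearts. As deposited, 27 of 32 members were lower in obese hearts and 0 were higher (limma, adjusted p under 0.05), beside 16.5% of all tested genes called lower and 0.352% called higher. All 32 log2 changes were negative, with a median of -0.44, and 29 had an unadjusted p under 0.05, beside 3561 of 10526 tested genes. In 27 members all obese samples lay below all lean samples, as in 23.2% of all tested genes. The median member lay 0.27 to 0.56 below the lean mean on the log2 scale in each obese sample, the least in obese replicate 2 and the most in obese replicate 3. Leaving out 1 sample at a time, 24 of the 27 calls were made in all 12 fits, all but Pdhx, Suclg2 and Sdhc.

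Much of this was shared with other genes. After rescaling, 30 of 32 members still had a negative change, with a median log2 change of -0.18 while the median gene stood at 0.00. Only Mpc1 was then called lower, beside 0.751% of all genes called lower and 0.589% called higher. An unadjusted p under 0.05 was found in 16 members, beside 1756 of 10526 tested genes. The obese samples lay below all lean samples in 11 members, beside 5.31% of all genes: Mpc1, Mpc2, Pdhb, Pdk2, Pdpr, Cs, Idh2, Idh3b, Sucla2, Sdha and Got2. The cardiomyocyte marker list was also lower in obese hearts. Its rescaled sum ran from 20507 to 22719 TPM in lean, from 17401 to 20231 in obese and from 17549 to 19303 with NAM. In the same order, the rescaled medians were 21142, 18629 and 18636 TPM. The deposited medians of this list were 21939, 16637 and 20561 TPM. In obese against lean, 9 of its 10 genes were called lower and 1 higher as deposited, and 2 lower and 1 higher after rescaling. The rescaled sum of the erythroid markers was 606 to 1265 TPM in lean and 1550 to 3871 TPM in obese hearts, without overlap. Of the 5 listed erythroid genes 3 had a row, and 0 of these were called in obese against lean on either scale. The rescaled sum of the fibroblast markers, with 443 to 491 and 483 to 860 TPM, overlapped. The part of these cell types in the members' change was not tested.

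The second comparison asked what NAM changed in obese hearts. As deposited, 28 of 32 members were higher with NAM and 0 were lower (limma), beside 28.8% of all tested genes called higher and 0.466% called lower. An unadjusted p under 0.05 was found in 29 members, beside 4473 of 10526 tested genes. The median log2 change of the members was 0.44. In 25 members all NAM-treated samples lay above all obese samples, as in 28.0% of all genes. The 4 members not called were Mpc2, Pdhx, Pdk3 and Pdk4. Leaving out 1 sample at a time, 21 of the 28 calls were made in all 12 fits, all but Pdk1, Pdk2, Pdp1, Pdp2, Suclg1, Sdhb and Fh. For each of these 7 the adjusted p was highest without NAM-treated replicate 1. The same held for every other called member except Idh3a, Dlst and Sucla2. After rescaling, 0 of 32 members were called in either direction by limma, beside 0.2% of genes called higher and 0.513% called lower. An unadjusted p under 0.05 was found in 9 members, beside 1651 of 10526 tested genes. The median rescaled change of the members was 0.12, and 24 of 32 members were positive. Above obese without overlap were 7 members, beside 4.87% of all genes: Pdha1, Pdpr, Cs, Suclg2, Sdha, Got1 and Got2. Of the cardiomyocyte markers, 9 of 10 were called higher with NAM as deposited, and 1 of 10 after rescaling. The rescaled sum of the fibroblast markers was lower with NAM without overlap, at 411 to 466 TPM against 483 to 860 TPM in obese hearts. As deposited the groups overlapped, at 408 to 523 TPM with NAM and 406 to 753 TPM in obese hearts. On either scale 1 of 7 fibroblast genes was called lower. The rescaled sum of the erythroid markers was 391 to 1786 TPM with NAM, with medians of 2343 TPM in obese hearts and 782 TPM with NAM. The part of these cell types in the members' change with NAM was not tested.

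The third comparison set NAM-treated obese hearts against lean hearts, and it shares its samples with the first 2 comparisons. As deposited, limma called 0 of 32 members, with a median log2 change of 0.00, beside 0.865% of all genes called higher and 0.969% called lower. An unadjusted p under 0.05 was found in 3 members, beside 1787 of 10526 tested genes. Mpc1 was the 1 member below lean without overlap, beside 3.81% of all genes. After rescaling, 2 members were called lower, Mpc1 and Mpc2, and 0 higher, beside 1.59% of all genes called lower and 0.77% called higher. Without overlap below lean were 4 members, Mpc1, Mpc2, Sucla2 and Sdhb, beside 6.35% of all genes. An unadjusted p under 0.05 was found in 5 members, beside 1771 of 10526 tested genes. With TPM recomputed without mitochondrially encoded genes, 0 members were called by limma in obese against lean, and with NAM against lean Mpc2 was called lower at -0.25 and Sdhc higher at 0.24, while Mpc1 was not called.

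**Figure D2:**
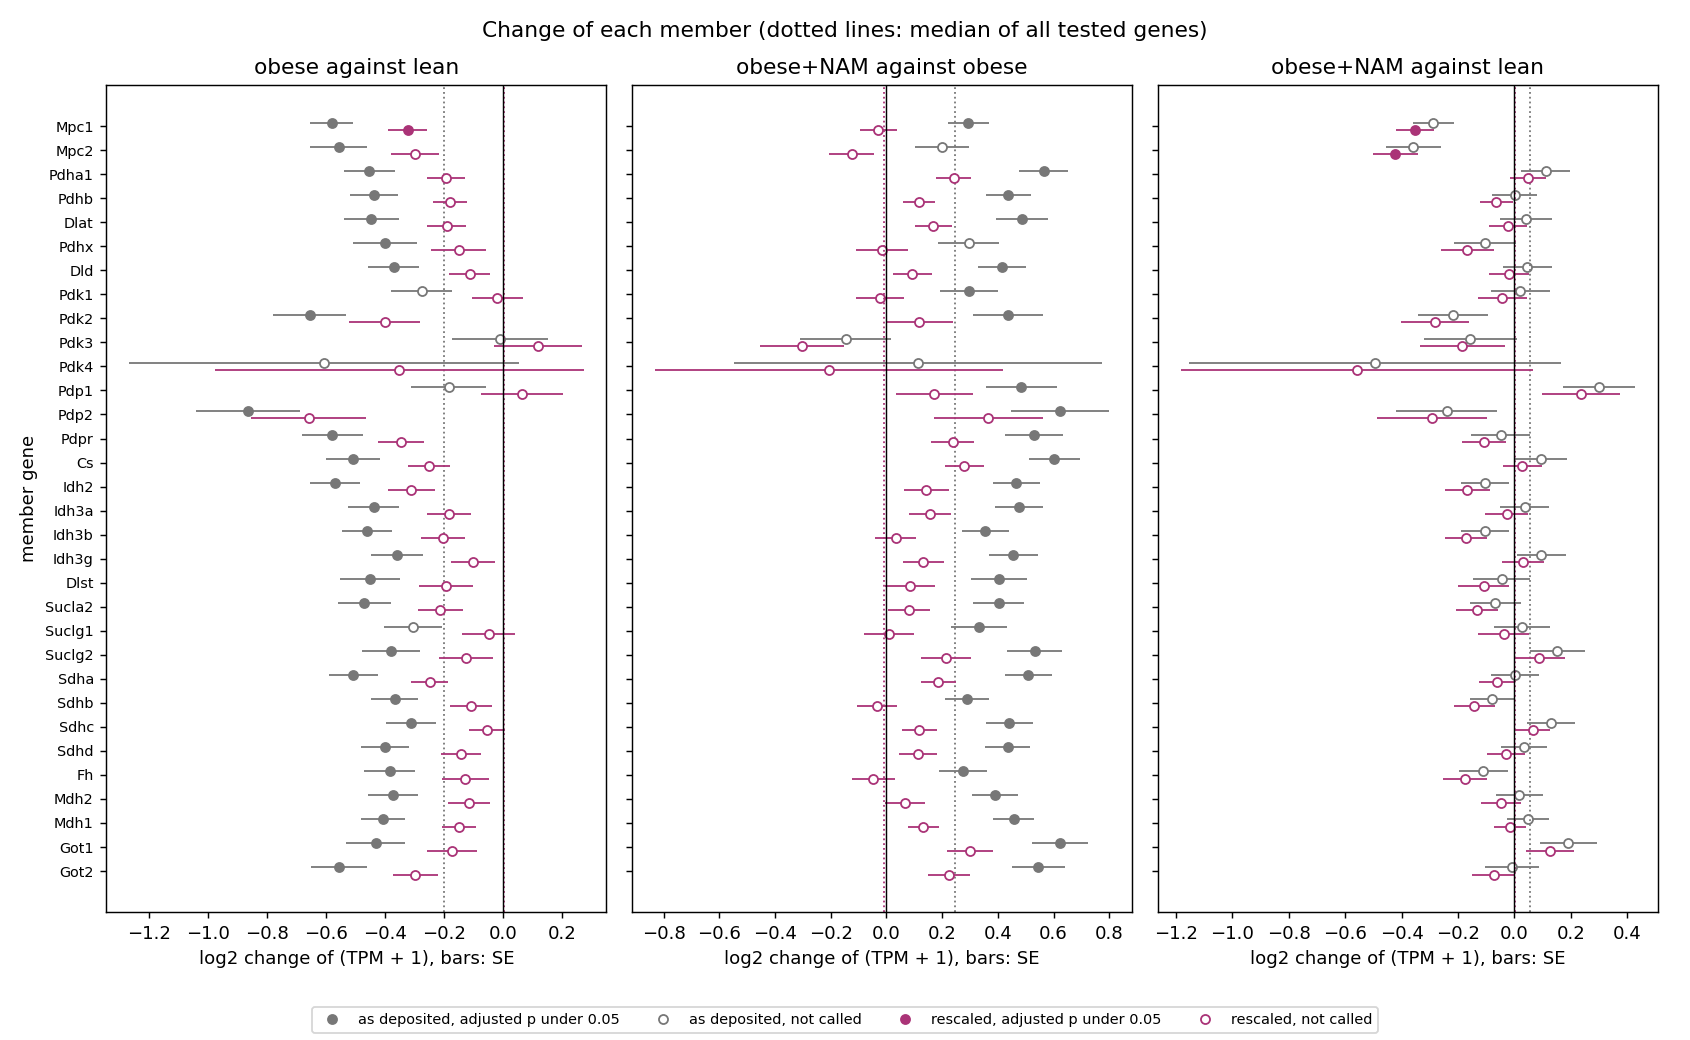
Change of each member in the 3 comparisons, as log2 change of (TPM + 1) with its standard error (limma, 4 samples a group), as deposited in grey and rescaled in purple. Filled points are past an adjusted p of 0.05, and dotted lines mark the median of all tested genes on each scale. Filled purple points are limited to Mpc1 in obese against lean and to Mpc1 and Mpc2 in obese+NAM against lean.

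The carrier was the step with the lowest median log2 change with NAM against lean, -0.32 as deposited and -0.39 rescaled. Mpc1 (ENSRNOG00000012415) stood at 467.7, 439, 430.3 and 458 TPM in the lean samples, at 305, 307, 293 and 294 TPM in the obese samples, and at 404, 352, 328 and 391 TPM with NAM. No 2 groups overlapped, and the NAM-treated samples lay between the others. Its mean fell from 449 ± 17.2 TPM in lean to 299.7 ± 7.1 TPM in obese hearts (SD, n = 4), a log2 change of -0.58 ± 0.07 (SE, limma adjusted p = 0.00104), and was 369 ± 35.1 TPM with NAM, a rise of 0.29 ± 0.07 over obese (adjusted p = 0.0124).

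After rescaling, Mpc1 stood at 427, 426, 413 and 439 TPM in lean, at 362, 331, 335 and 336 TPM in obese, and at 345, 355, 292 and 348 TPM in NAM-treated samples. Obese and NAM-treated samples now overlapped, and both lay below every lean sample. The rescaled log2 change was -0.32 ± 0.07 in obese against lean (adjusted p = 0.0392), -0.03 ± 0.07 with NAM against obese (adjusted p = 0.870) and -0.35 ± 0.07 with NAM against lean (adjusted p = 0.0178). Leaving out 1 sample at a time, the obese against lean call was kept in 2 of 12 fits, with an adjusted p of up to 0.1004 without lean replicate 1. The call with NAM against lean was kept in 11 of 12 fits and reached 0.0528 without lean replicate 2. The obese against lean call also ended with no filter, with plain eBayes, with arrayWeights and with only the 8 samples of both groups.

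Mpc2 (ENSRNOG00000003150), the partner subunit, stood at 455, 373, 332 and 402 TPM in lean, at 248, 262, 265 and 278 TPM in obese, and at 305, 269, 303 and 336 TPM in NAM-treated samples. The lean samples were above all obese samples, and the NAM-treated samples overlapped both other groups. As deposited, the log2 change was -0.56 ± 0.10 in obese against lean (limma adjusted p = 0.00402) and 0.20 ± 0.10 with NAM (adjusted p = 0.136). After rescaling the lean samples stood at 416, 361, 318 and 385 TPM, the obese samples at 295, 282, 303 and 318 TPM, and the NAM-treated samples at 260.4, 270.3, 270.1 and 299 TPM. Mpc2 was then called with NAM against lean, at -0.42 ± 0.08 (adjusted p = 0.0186), but not in obese against lean, at -0.30 ± 0.08 (adjusted p = 0.0906). The NAM against lean call was kept in 7 of 12 fits that left out 1 sample, with an adjusted p of up to 0.0684 without NAM-treated replicate 3.

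The carrier's TPM relative to Pdha1, the catalytic E1 alpha subunit of the complex that takes up its pyruvate, does not depend on either scale. Mpc1 to Pdha1 was 1.88 to 1.997 in lean, 1.54 to 1.92 in obese and 1.31 to 1.56 in NAM-treated samples, and Mpc2 to Pdha1 was 1.47 to 1.83, 1.31 to 1.74 and 1.14 to 1.34. NAM-treated samples lay below all lean samples in both ratios, while obese samples overlapped lean for Mpc1 and for Mpc2. These 2 ratios were formed after the carrier values had been seen and were not tested. Of the 5 genes of the complex, Pdha1 had the largest rescaled change with NAM against obese, at 0.24, and Pdhx the lowest, at -0.02. Ratios of the carrier genes to the other genes of the complex were not formed. The ratio of Mpc1 to Mpc2 was 1.16 ± 0.11, 1.14 ± 0.075 and 1.22 ± 0.12 in the 3 groups (SD, n = 4), with overlap throughout.

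**Figure D3:**
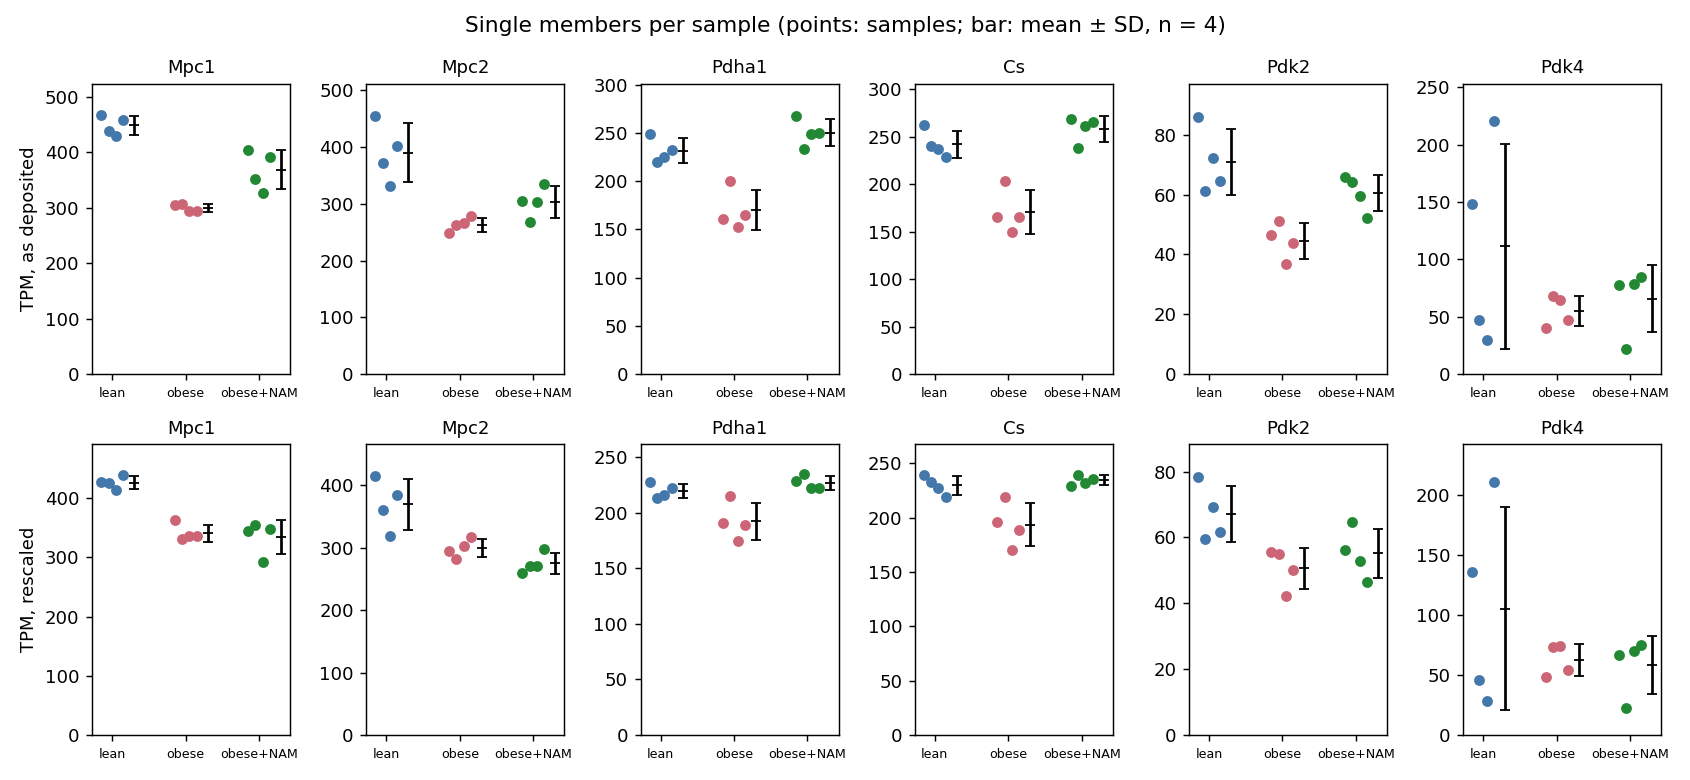
TPM of 6 members in each sample, as deposited in the upper row and rescaled in the lower row, with all axes starting at 0. Points are samples and bars the mean with SD (n = 4). Mpc1 and Mpc2 with NAM lie near obese in the lower row, Pdha1 and Cs lie near lean, and Pdk4 spreads widely in lean hearts.

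The 5 genes of the pyruvate dehydrogenase complex were all lower in obese hearts as deposited, with log2 changes from -0.37 to -0.45, and 4 of them, all but Pdhx, were higher with NAM. Pdha1 stood at 249, 219.9, 225 and 232 TPM in lean, at 161, 199.7, 153 and 165 TPM in obese, and at 268, 233, 249 and 249.99 TPM in NAM-treated samples. All obese samples were below all others. The log2 change was -0.45 ± 0.09 in obese against lean (limma adjusted p = 0.00575) and 0.56 ± 0.09 with NAM (adjusted p = 0.00292), and after rescaling it was -0.19 ± 0.06 (adjusted p = 0.149) and 0.24 ± 0.06 (adjusted p = 0.110). Pdhb, which encodes the E1 beta subunit, had the same rescaled direction at -0.18 and 0.12, and Dlat, the E2 acetyltransferase, at -0.19 and 0.17, without a call in either. Pdhx, the E3-binding protein, had a deposited change of 0.30 with NAM (adjusted p = 0.0567) and a rescaled change of -0.02. Dld, the E3 dehydrogenase that the complex shares with 2-oxoglutarate dehydrogenase, had rescaled changes of -0.11 and 0.09.

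The 4 kinase genes did not share one pattern. Pdk2 stood at 85.9, 61.3, 72.1 and 64.4 TPM in lean, at 46.7, 51.1, 36.8 and 43.8 TPM in obese, and at 66.0, 64.3, 59.5 and 52.3 TPM in NAM-treated samples. All obese samples lay below all lean and all NAM-treated samples. Pdk2 was the 1 kinase called lower in obese hearts as deposited, at -0.66 ± 0.12 (limma adjusted p = 0.00534), and it was higher with NAM at 0.44 ± 0.12 (adjusted p = 0.0214). Its rescaled changes were -0.40 ± 0.12 (adjusted p = 0.123) and 0.12 ± 0.12 (adjusted p = 0.679).

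Pdk1 stood at 75.5, 69.1, 75.5 and 80.1 TPM in lean, at 64.3, 70.8, 54.3 and 58.8 TPM in obese, and at 87.9, 68.9, 68.3 and 80.8 TPM in NAM-treated samples. Obese replicate 2 overlapped both other groups. The deposited change was -0.28 ± 0.10 (adjusted p = 0.0831) and 0.30 ± 0.10 (adjusted p = 0.0473), and after rescaling it was -0.02 in both comparisons. The call with NAM was kept in 3 of 12 fits that left out 1 sample, with an adjusted p of up to 0.139. It also ended with no filter, with plain eBayes, with only the 8 samples of both groups, with the replicate block and without Mt-atp8. Pdk3 was the member with the lowest level, at 1.38, 1.08, 0.811 and 0.789 TPM in lean, at 0.580, 1.16, 1.09 and 1.19 TPM in obese, and at 1.13, 0.416, 0.987 and 0.735 TPM in NAM-treated samples, with overlap between all groups and no call on either scale.

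Pdk4, a kinase that fasting and fatty acids are known to induce in muscle and heart, stood at 148.7, 47.1, 29.7 and 220.4 TPM in lean, at 40.4, 67.9, 64.9 and 47.5 TPM in obese, and at 78.1, 22.1, 78.7 and 84.3 TPM in NAM-treated samples. The lean samples spanned a 7.42-fold range and enclosed all other samples but NAM-treated replicate 2. The log2 change was -0.61 ± 0.66 in obese against lean (limma adjusted p = 0.552), 0.11 ± 0.66 with NAM (adjusted p = 0.917) and -0.49 ± 0.66 with NAM against lean (adjusted p = 0.752), each smaller than its standard error. The within-group SD of rescaled log2 levels was 0.914 for Pdk4, against a median of 0.101 over the members and of 0.140 over 3013 genes with a mean of at least 10 TPM. Pdk4 was at the 96.8th percentile of those genes, whereas 26 of the 29 members with at least 10 TPM were below their median.

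Of the 3 phosphatase genes, Pdp2 and Pdpr were lower in obese hearts, and all 3 were higher with NAM as deposited. Pdp2 stood at 5.82, 7.51, 7.41 and 4.95 TPM in lean, at 4.16, 2.46, 2.55 and 3.19 TPM in obese, and at 5.87, 6.01, 3.51 and 5.87 TPM in NAM-treated samples. The obese samples were below all lean samples, and NAM-treated replicate 3 fell among the obese samples. It had the steepest deposited change of all members in obese against lean, -0.86 ± 0.18 (limma adjusted p = 0.00750), and 0.62 ± 0.18 with NAM (adjusted p = 0.0213). After rescaling these were -0.66 ± 0.19 (adjusted p = 0.118) and 0.37 ± 0.19 (adjusted p = 0.386), at a level of a few TPM.

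Pdp1, the calcium-activated isoform, stood at 23.1, 26.9, 29.0 and 22.4 TPM in lean, at 21.2, 21.3, 18.9 and 27.7 TPM in obese, and at 35.5, 34.0, 26.8 and 29.4 TPM in NAM-treated samples. Obese replicate 4 overlapped both other groups. It was not called in obese against lean, at -0.18 ± 0.13 (adjusted p = 0.333), and was higher with NAM at 0.48 ± 0.13 (adjusted p = 0.0157), while its rescaled change with NAM was 0.17 (adjusted p = 0.592). Pdpr, the regulatory subunit of the phosphatase, was lower in obese hearts at -0.58 ± 0.10 (adjusted p = 0.00443) and higher with NAM at 0.53 ± 0.10 (adjusted p = 0.00491). After rescaling it was at -0.35 ± 0.08 in obese against lean (adjusted p = 0.0526), without overlap.

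In the cycle itself 14 of 15 measured genes were lower in obese hearts and 15 of 15 higher with NAM as deposited, with median log2 changes of -0.40 and 0.44. The exception was Suclg1, the shared alpha subunit of succinyl-CoA synthetase, at -0.31 (limma adjusted p = 0.0508). Cs, citrate synthase, which joins acetyl-CoA to oxaloacetate, stood at 262, 239.9, 237 and 229 TPM in lean, at 165, 203, 149 and 165 TPM in obese, and at 268, 238, 261 and 265 TPM in NAM-treated samples. All obese samples were below all others. Its log2 change was -0.51 ± 0.09 (adjusted p = 0.00428) in obese against lean and 0.60 ± 0.09 with NAM (adjusted p = 0.00292). After rescaling it was -0.25 ± 0.07 (adjusted p = 0.102) and 0.28 ± 0.07 (adjusted p = 0.0972), still without overlap in either comparison.

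Idh2 stood at 595, 525, 536 and 564 TPM in lean, at 406, 403, 333 and 356 TPM in obese, and at 578, 508, 471 and 515 TPM in NAM-treated samples. All obese samples lay below all others, and NAM-treated samples overlapped lean. It had the steepest cycle change in obese against lean on both scales, -0.57 ± 0.09 as deposited (adjusted p = 0.00229) and -0.31 ± 0.08 rescaled (adjusted p = 0.0792). The 3 subunits of the NAD-dependent isocitrate dehydrogenase were at -0.44 for Idh3a, -0.46 for Idh3b and -0.36 for Idh3g as deposited, and at -0.18, -0.20 and -0.10 rescaled.

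Sdha, the flavoprotein subunit of succinate dehydrogenase, which is also complex II of the respiratory chain, stood at 239.9, 203, 202 and 218 TPM in lean, at 152, 165, 137 and 152 TPM in obese, and at 233, 197, 212 and 221 TPM in NAM-treated samples. All obese samples were below all others. The log2 change was -0.51 ± 0.08 in obese against lean (limma adjusted p = 0.00348) and 0.51 ± 0.08 with NAM (adjusted p = 0.00306), and rescaled -0.25 ± 0.06 (adjusted p = 0.0737) and 0.19 ± 0.06 (adjusted p = 0.175). The other subunits of the same complex had rescaled changes in obese against lean of -0.11 for Sdhb, the iron-sulfur subunit, and of -0.05 for Sdhc and -0.14 for Sdhd, the membrane anchors. With NAM the rescaled changes of the subunits were -0.03 for Sdhb, 0.12 for Sdhc and 0.11 for Sdhd.

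The remaining cycle genes were called in both of the first comparisons as deposited and in none after rescaling. The Fh call with NAM was kept in 7 of 12 fits that left out 1 sample (adjusted p of up to 0.0876) and ended without Mt-atp8, and the Suclg2 call in obese against lean was kept in 9 of 12 (up to 0.0571, without lean replicate 4). Dlst, the E2 subunit of 2-oxoglutarate dehydrogenase, was at -0.45 and 0.41 as deposited, and at -0.19 and 0.08 rescaled. The ATP-forming succinyl-CoA synthetase subunit Sucla2 was at -0.47 and 0.40 as deposited, and at -0.21 and 0.08 rescaled, and the GTP-forming Suclg2 at -0.38 and 0.53, and at -0.13 and 0.21. Fh, fumarase, was at -0.38 and 0.27 as deposited, and at -0.13 and -0.05 rescaled. Mdh2, the mitochondrial malate dehydrogenase, was at -0.37 and 0.39 as deposited, and at -0.11 and 0.07 rescaled.

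The shuttle enzymes, which carry the reducing equivalents of cytosolic NADH into mitochondria, were all lower in obese hearts and all higher with NAM as deposited. Got1, the cytosolic aspartate aminotransferase, stood at 233, 181, 195 and 188 TPM in lean, at 143, 171, 127 and 149 TPM in obese, and at 244, 221, 226 and 216 TPM in NAM-treated samples. All obese samples were below all others. Its change with NAM was 0.62 ± 0.10 (limma adjusted p = 0.00305) and 0.30 ± 0.08 after rescaling (adjusted p = 0.123).

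Got2, the mitochondrial form, stood at 201, 183, 180.5 and 191 TPM in lean, at 132, 150.4, 110.4 and 124 TPM in obese, and at 209, 173, 184 and 186 TPM in NAM-treated samples. The obese samples were again below all others. Its change in obese against lean was -0.55 ± 0.09 (adjusted p = 0.00373), and -0.30 ± 0.08 after rescaling (adjusted p = 0.0762). Mdh1 was at -0.41 and 0.46 as deposited, and at -0.15 and 0.13 rescaled.

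**Figure D4:**
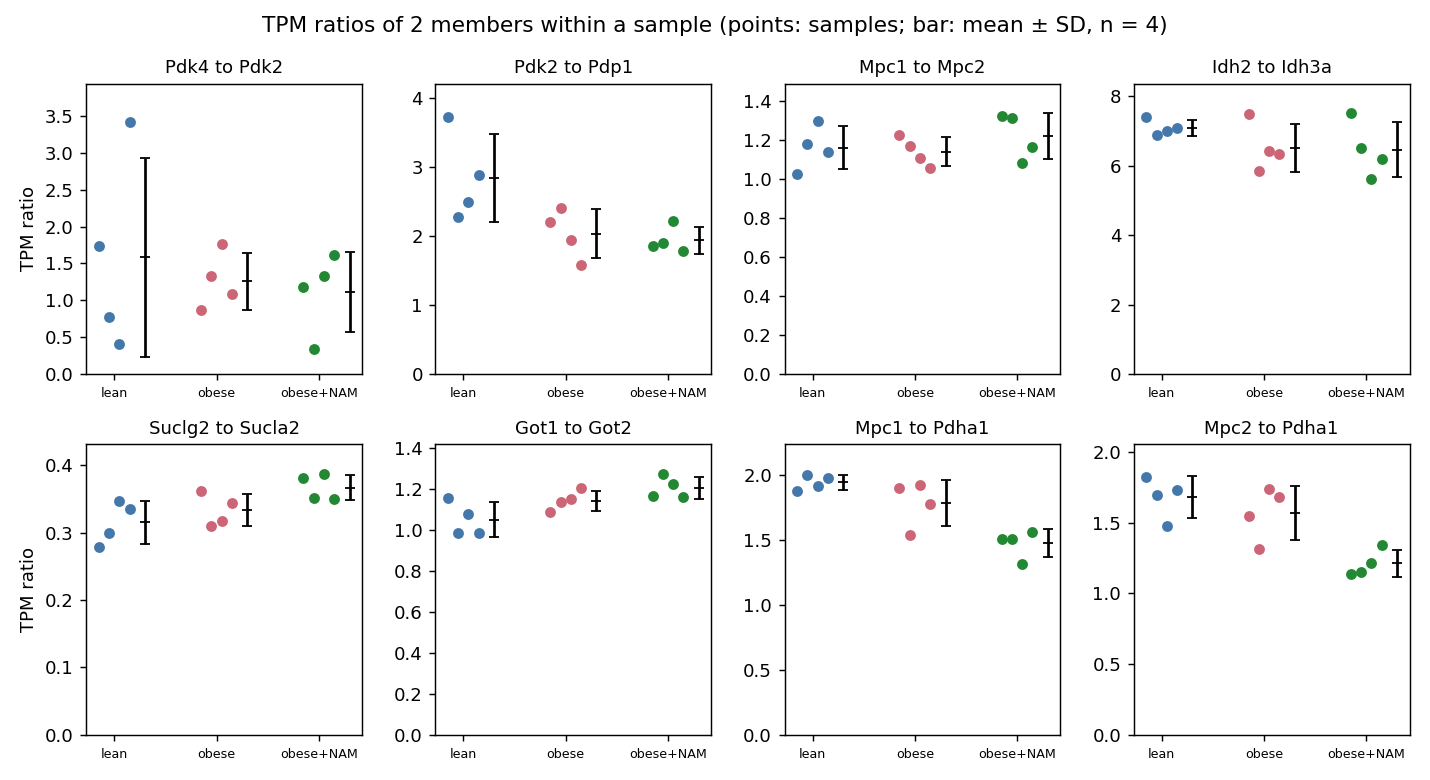
TPM ratio of 2 members within each sample for 8 pairs of members, with all axes starting at 0. Points are samples and bars the mean with SD (n = 4). The obese+NAM samples lie apart from all lean samples for Pdk2 to Pdp1, Suclg2 to Sucla2, Got1 to Got2 and the 2 carrier ratios, and overlap them in the other 3.

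Ratios of 2 members within a sample ask whether the balance inside a step shifted, independently of the scale. Over 6 ratios and 3 comparisons, 18 exact 2-sided permutation tests had a smallest possible p of 0.0286, and 0 passed after Benjamini-Hochberg adjustment. With that smallest p, a fully separated ratio could not pass unless many other tests also reached it. The count of passing tests therefore does not decide whether the balance shifted. The 3 tests at that smallest p were all NAM-treated against lean, each with an adjusted p of 0.171. Pdk2 to Pdp1, a kinase to phosphatase ratio, was 2.84 ± 0.63 in lean hearts, 2.03 ± 0.35 in obese hearts and 1.94 ± 0.19 with NAM (SD, n = 4). Suclg2 to Sucla2, the GTP-forming to the ATP-forming succinyl-CoA synthetase subunit, was 0.315 ± 0.032, 0.334 ± 0.024 and 0.367 ± 0.019. Got1 to Got2 was 1.05 ± 0.083, 1.14 ± 0.049 and 1.21 ± 0.054. Pdk4 to Pdk2 spanned 0.412 to 3.42 in lean samples and overlapped in all comparisons.

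Genes that border the module were read from a list of 37 neighbours, such as malic enzymes, lipoylation factors and mitochondrial carriers, of which 29 were tested. As deposited, 14 of 29 were lower in obese against lean, 18 were higher with NAM and 1 was lower with NAM against lean, with none in the opposite directions, beside 16.5%, 28.8% and 0.969% of all tested genes. After rescaling, 1 neighbour was lower in obese against lean, 0 were called with NAM against obese and 2 were lower with NAM against lean (limma), beside 0.751% of all genes lower, 0.2% higher or 0.513% lower, and 1.59% lower. With NAM against obese, 4 neighbours had an unadjusted rescaled p under 0.05, beside 1651 of 10526 tested genes.

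Oxct1, which activates ketone bodies so that they can enter the cycle as acetyl-CoA, was the neighbour called in both rescaled contrasts with lean. As deposited it stood at 443, 415, 430.3 and 478 TPM in lean, at 226, 259, 222 and 229 TPM in obese, and at 374, 339.6, 282 and 342 TPM in NAM-treated samples, so that no 2 groups overlapped on that scale. Its rescaled log2 change was -0.65 ± 0.09 in obese against lean (limma adjusted p = 0.00413) and -0.47 ± 0.09 with NAM against lean (adjusted p = 0.0162). With NAM against obese the rescaled change was 0.18 ± 0.09 and not called (limma adjusted p = 0.328). Gpd2, the mitochondrial enzyme of the glycerol phosphate shuttle, stood at 4.00, 4.34, 3.67 and 3.45 TPM in lean, at 2.26, 2.21, 1.26 and 1.90 TPM in obese, and at 1.998, 2.52, 2.45 and 2.57 TPM in NAM-treated samples. Both obese groups were below all lean samples as deposited, and the rescaled change with NAM against lean was -0.56 ± 0.13 (limma adjusted p = 0.0480). The rescaled change of Gpd2 was similar in obese against lean, at -0.57 ± 0.13 (adjusted p = 0.0582). With NAM against obese it was 0.01 ± 0.13 (adjusted p = 0.921).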

How the data were processed

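The deposited table holds TPM per gene, which the authors computed from total RNA libraries made with a directional kit, per the labels' protocols. Rnor_6.0 and limma are named in the submitters' processing notes, with the aligner not given in the sources used here. In the 4 NAM-treated columns, also deposited as TPM, 498 genes carry a text mark in place of a number, none of them a member, and were left out, leaving 17104 genes.

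A gene was kept if 4 or more of the 12 samples reached 1 TPM (10526 genes, all 32 members included). Group means were fitted to log2(TPM + 1) over all samples (limma 3.58.1, statmod 1.5.0, R 4.3.3; 9 residual degrees of freedom; robust eBayes with an intensity trend). Tests were 2-sided with Benjamini-Hochberg adjustment over all kept genes and a threshold of 0.05. A fold change on this scale understates changes of low genes. Rescaled values are TPM divided by the median ratio of each sample to the geometric mean over kept genes, which runs from 0.841 to 1.17. Ratios were tested with exact permutation tests (scipy 1.17.1). Members were taken by gene name alone, but the choice of this module, its lists and the rules for naming genes was made with earlier results of these data known. Values in every sample were given for the carrier and kinase genes, Pdha1, Pdp1, Pdp2, Cs, Idh2, Sdha and Got1, for members called after rescaling and for the steepest rescaled member of each step. The fit was tested on simulated data. Profiles of samples of one group correlated at 0.953 to 0.968 over genes, and no 2 samples were identical. Alternatives were other pseudocounts (0.1 and 5), filters, normalizations, fits, and each sample left out in turn. TPM carry no depth, and precision is therefore judged from the spread between samples.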

Additional observations from a re-analysis of the deposited data

Results flagged for a closer look

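Of 96 groups of 4 values (32 members in 3 groups), 6 held a sample far from the other 3 by Dixon's criterion, and chance gives about 1 in 20. Dlat stood at 86.8 TPM in lean replicate 1, against 71.4 to 73.8 TPM in the other lean samples. Pdhx stood at 29.3 TPM in obese replicate 2, against 21.3 to 22.6 TPM. Pdk3 stood at 0.580 TPM in obese replicate 1, against 1.09 to 1.19 TPM. Pdk4 stood at 22.1 TPM in NAM-treated replicate 2, against 78.1 to 84.3 TPM. Pdp2 stood at 3.51 TPM in NAM-treated replicate 3, against 5.87 to 6.01 TPM. Suclg1 stood at 85.9 TPM in obese replicate 3, against 108 to 111 TPM. None of the 18 groups of ratio values held such a sample.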

How the results depend on the processing

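The choice of scale moved the counts most. With TPM recomputed without mitochondrially encoded genes, the 27 members lower in obese against lean became 0, the 28 higher with NAM became 6, and with NAM against lean 1 was higher and 1 lower. All called genes then numbered 83, 323 and 741 in the 3 comparisons, against 1770, 3077 and 193. With quantile normalization the members numbered 2 lower (Mpc1 and Mpc2), 2 higher (Sdha and Got1) and, with NAM against lean, 1 lower (Mpc2, while Mpc1 was not called). All genes in the first 2 comparisons then numbered 126 and 66. Without Mt-atp8 all genes numbered 2969 in obese against lean and 331 with NAM against lean, where 2 members were lower. For NAM against lean as deposited, arrayWeights gave 1 member lower and 326 genes, and no filter 124 genes.

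On the rescaled scale, the 1 member lower in obese against lean became 0 with no filter, with plain eBayes, with arrayWeights and with only the 8 samples of both groups, but 3 under the filter on a mean of 5 TPM. All genes went from 141 to 72, 85 and 43 with no filter, plain eBayes and 8 samples. With NAM against obese they went from 75 to 27 with no filter, 117 under the filter on a mean of 5 TPM, 16 with plain eBayes, 19 with 8 samples and 29 with the replicate block. With NAM against lean they went from 248 to 145 with no filter and 379 with arrayWeights.

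Leaving out 1 sample at a time gave 24 to 29 members lower in obese against lean and 21 to 29 higher with NAM as deposited. Of the calls, 24 of 27 and 21 of 28 were made in all 12 fits. All genes ranged from 1000 (without lean replicate 1) to 1956, from 1848 (without NAM-treated replicate 1) to 3625 and from 70 (without NAM-treated replicate 3 or 4) to 189. Rescaled, members ranged from 0 to 2 lower in obese against lean, from 0 to 2 higher with NAM (2 without obese replicate 2) and from 0 to 2 lower with NAM against lean (0 without lean replicate 2). All genes ranged from 41 (without lean replicate 2) to 223, from 10 (without NAM-treated replicate 1) to 162 and from 105 (without NAM-treated replicate 3) to 288. No called member changed sign under any of these alternatives. The causes were not tested.

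Samples with the same replicate number did not deviate together as deposited (r from -0.05 to 0.07 over genes, 0 of 12 pairs over 0.1). Whether samples with the same number were handled together was not tested. With the replicate block 28 members were lower in obese against lean and 27 higher with NAM as deposited.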
